A study of Mus musculus with 12 samples.

Results

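The genes described here are 40 markers of brain regions that adjoin the mouse cerebral cortex, listed by symbol: 13 of the striatum, 9 of the hippocampus, 12 of the choroid plexus and 6 of the thalamus. All 40 were found among the 34193 genes of the deposited table, and 31 of them, averaging at least 10 normalised reads, entered a test of 14397 genes. The study sequenced total RNA, freed of ribosomal RNA, from the cerebral cortex of mice aged 8 weeks. Both groups carried loxP-flanked alleles of Nsd1, the gene of a histone H3 lysine 36 methyltransferase, written as Nsd1 flx/flx. The 6 control (ctrl) libraries were Nestin-cre -/-, and the 6 conditional knockout (cKO) libraries were Nestin-cre +/-. Nestin-Cre acts in neural progenitors and so reaches neurons and glia descended from them, in the neighbouring regions as well as in the cortex. The controls lacked the transgene, so an effect of Cre itself cannot be told apart from an effect of the Nsd1 deletion. The labels number the samples as biological replicates without naming animals, and p-values therefore measure the spread between these samples.

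The striatum lies under the cortex and consists mostly of spiny projection neurons, which carry D1 or D2 dopamine receptors and the cyclic AMP machinery coupled to them. The hippocampus continues the medial edge of the cortex, with granule cells in the dentate gyrus and pyramidal cells in the CA fields. The choroid plexus hangs in the ventricles, secretes cerebrospinal fluid and makes transthyretin in very large amounts, and the thalamus sends its axons, but not its cell bodies, into the cortex. A piece of cortex can carry some of each neighbour, and many of these markers are also transcribed to a lesser degree within the cortex. The comparison asked whether a marker differed between the genotypes or varied between libraries of the same genotype. In bulk RNA, fewer cells of a region and less RNA per cell cannot be told apart.

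Between 10.5 and 21.1 M reads were assigned to genes in the ctrl libraries and between 14.6 and 27.0 M in the cKO libraries, so that 3 reads corresponded to 1.98 to 5.64 normalised reads. Nsd1 itself had 4235 ± 850 normalised reads in ctrl and 3251 ± 299 in cKO (SD, n = 6 each; log2 fold change -0.36, SE 0.12, limma adjusted p = 0.383), and the labels do not say which exons are flanked by loxP. The summed normalised reads of 4 Y-linked genes were above 100 in libraries 1 to 3 of each genotype. In libraries 4 to 6 they were 0, apart from 3.09 in cKO library 6, and these are called libraries without Y-linked reads for short. This split did not follow the sexes that the labels give to the same numbers. Columns were therefore assigned to a genotype only, and the libraries above and below this sum are treated as separate sets, each of 3 ctrl and 3 cKO libraries. The sets also differed in depth, with 18.8 to 27.0 M reads in the first and 10.5 to 20.4 M in the second, so sex, depth and any handling shared by a set cannot be told apart. In the second set the ctrl libraries had 10.5, 13.5 and 13.8 M and the cKO libraries 14.6, 20.4 and 17.2 M. Genotype and depth therefore cannot be told apart within that set, whereas the depths of the genotypes overlapped in the first. The share of mitochondrial ribosomal RNA was 14.2% in ctrl library 4 and 11.5% in ctrl library 5, against 1.46% to 6.00% in the other 10. Of 13 listed cortex markers, 12 were in the table and tested, and limma, edgeR and DESeq2 called 0 of them (2 at an unadjusted limma p below 0.05). Slc17a7, the vesicular glutamate transporter of cortical excitatory neurons, ranged from 22117 to 33908 normalised reads.

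Of the 31 tested markers, 2 rose in cKO and none fell: Lct, the gene of lactase and a hippocampal marker in the mouse, and Rgs16, a regulator of G protein signalling that marks the thalamus. Calls were made at a limma adjusted p below 0.05 on log2(normalised reads + 1), adjusted over all 14397 genes, of which 0.834% were called. edgeR and DESeq2 on the recovered reads called the same 2 markers. At an unadjusted limma p below 0.05 stood 5 of the 31, namely Lct, Rgs16, Prlr, Sostdc1 and Slc17a6, all higher in cKO, beside 9.73% of all tested genes in either direction. Rgs16 was the 1 marker of 31 whose cKO values all lay above its ctrl values, beside 0.813% of all tested genes. Fold changes are on the log2(normalised reads + 1) scale, which understates the change of genes with few reads.

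In the ctrl libraries, Lct had 18.2, 25.7 and 48.5 normalised reads at the lowest, median and highest. In the cKO libraries it had 46.3, 68.5 and 75.9. Of the 6 cKO libraries, 5 lay above every ctrl library, and the groups overlapped only because cKO library 4, at 46.3, fell below ctrl library 1, at 48.5. The means were 28.3 ± 10.6 and 66.0 ± 10.2 (SD, n = 6 each), a ratio of 2.33. The fitted log2 fold change was 1.24 (SE 0.18, 95% interval 0.86 to 1.62, limma adjusted p = 0.00149), and with any 1 library left out it lay between 1.17 and 1.38 with limma adjusted p at most 0.00621. Within the libraries with Y-linked reads it was 1.04 (limma adjusted p = 0.175) and within those without it was 1.44 (limma adjusted p = 0.0185). In each set the 3 cKO libraries lay above the 3 ctrl libraries.

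For Rgs16, the lowest, median and highest ctrl values were 126, 141 and 188 normalised reads. The cKO values were 203, 266 and 293. The lowest cKO library, number 3, exceeded the highest ctrl library, number 1, and both of these held Y-linked reads. The means were 148 ± 23.2 and 259 ± 31.5 (SD, n = 6 each), a ratio of 1.76, and the log2 fold change was 0.81 (SE 0.12, 95% interval 0.56 to 1.06, limma adjusted p = 0.00148). It ran from 0.77 to 0.90 with single libraries left out. Within the sets it was 0.60 with Y-linked reads (limma adjusted p = 0.238) and 1.03 without them (limma adjusted p = 0.0042).

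The 250 bases before the RefSeq transcription start of these 2 genes are shown because they are the markers that rose. A further reason is that the series concerns DNA methylation, which can lie at CG dinucleotides. The title of the series refers to sites outside CG, which were not counted here. The sequences are from the RefSeq annotation of GRCm38.p6, written 5′ to 3′ on the strand of the gene, with CG dinucleotides in capitals. Lct lies on the minus strand (chr1:128328319-128328568) and Rgs16 on the plus strand (chr1:153740103-153740352). The submitters' processing notes name the build mm9, and the deposited table itself gives no coordinates.
Lct: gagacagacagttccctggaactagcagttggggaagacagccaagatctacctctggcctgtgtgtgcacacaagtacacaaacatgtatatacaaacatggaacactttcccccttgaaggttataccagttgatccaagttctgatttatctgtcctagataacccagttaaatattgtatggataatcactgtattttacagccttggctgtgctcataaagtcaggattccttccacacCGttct
Rgs16: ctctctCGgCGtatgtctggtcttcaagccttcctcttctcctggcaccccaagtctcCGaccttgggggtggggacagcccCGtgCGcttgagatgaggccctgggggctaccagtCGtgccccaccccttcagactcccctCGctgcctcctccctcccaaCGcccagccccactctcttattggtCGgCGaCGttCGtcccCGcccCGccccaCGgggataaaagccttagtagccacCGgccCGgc
The window of Lct holds 1 CG and that of Rgs16 holds 17, against a median of 6 over the same window of 32851 RefSeq promoters, 92.1% of which hold at least 1. As few CGs as in Lct, or fewer, were found in 18.8% of promoters, and as few as in Rgs16, or fewer, in 78.3%. The letters TATAAA, searched on both strands, were in neither window and in 12.4% of all promoters, which says only that these letters are not in these bases. The 2 genes that rose thus differ widely in promoter CG content.

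**Figure D1:**
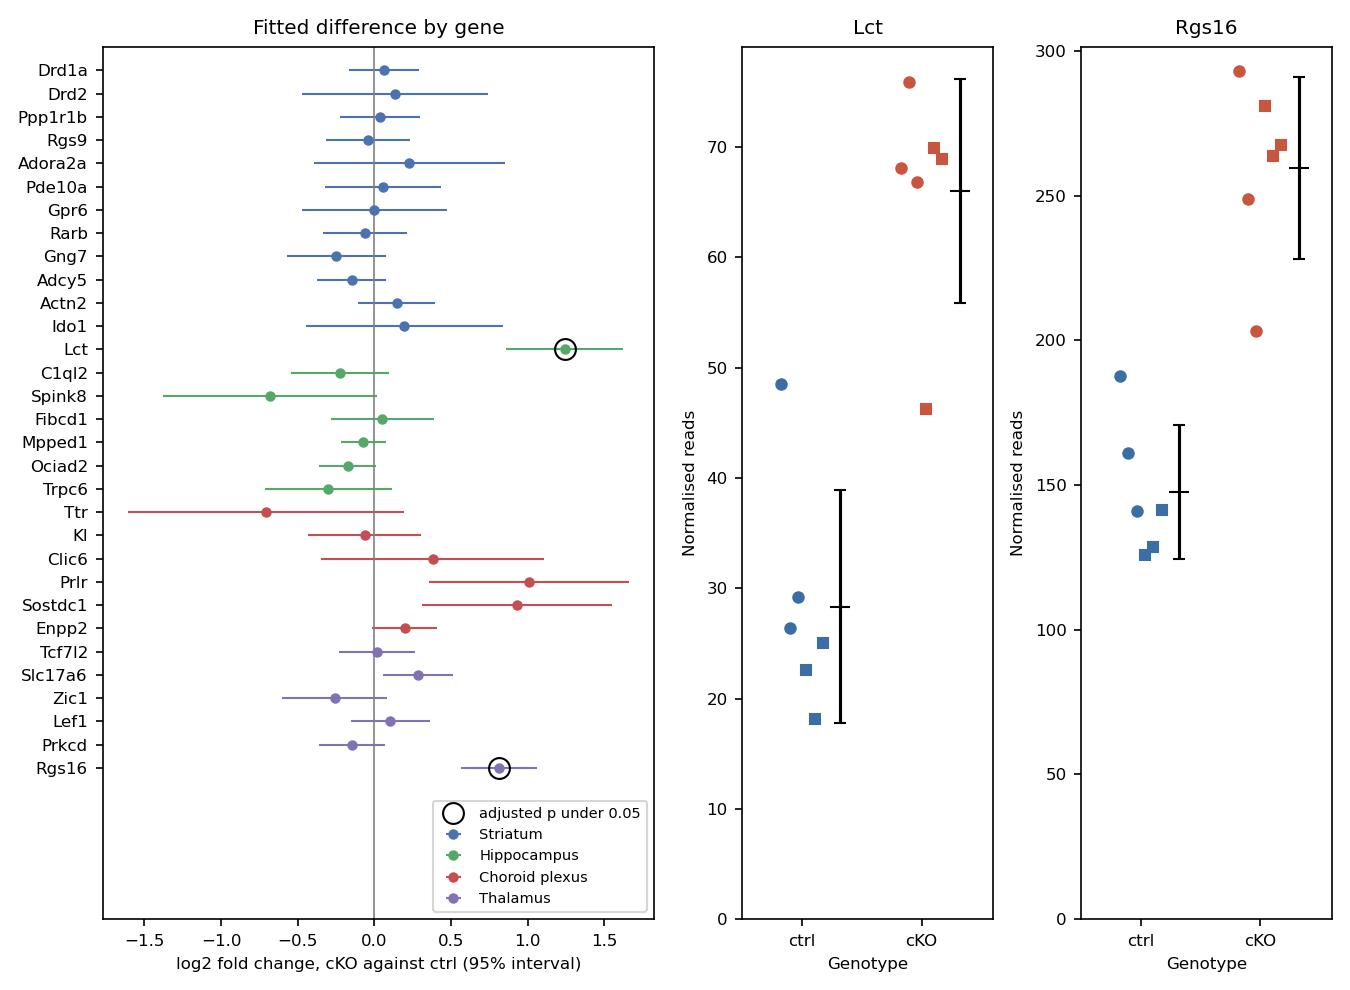
Left, the fitted log2 fold change of each of the 31 tested markers (x axis, cKO against ctrl, points with 95% intervals, coloured by region), with rings around the 2 called genes. Middle and right, normalised reads of Lct and Rgs16 in each library (circles, libraries with Y-linked reads; squares, without), with the mean and SD of 6 beside them: cKO library 4 at 46.3 for Lct is the only cKO point of either gene below a ctrl point.

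The other markers of the hippocampus and thalamus lists gave no call. Without Lct, the summed level of the other 8 hippocampus markers was 6729 to 7363 normalised reads in ctrl and 6098 to 6780 in cKO, and the median log2 fold change of the 6 tested among them was -0.20, with 1 above 0. Without Rgs16, the other 5 thalamus markers summed to 955 to 1161 in ctrl and 1067 to 1171 in cKO, with a median of 0.02 and 3 of 5 above 0. With the mean level of the other hippocampus markers as a covariate, the Lct difference was 1.35 (limma adjusted p = 0.0353), and with that of the other thalamus markers the Rgs16 difference was 0.81 (limma adjusted p = 0.00129). Across lists, Lct was no longer called with the thalamus level as a covariate (1.07, limma adjusted p = 0.124), a level that includes Rgs16 itself, and without Rgs16 in that level it was (1.24, limma adjusted p = 0.00256). Rgs16 was no longer called with the hippocampus level without Lct as a covariate (0.67, limma adjusted p = 0.138). It was called with the hippocampus level that includes Lct (0.81, limma adjusted p = 0.00254). Both genes stayed called with the striatum level or the choroid plexus level as a covariate.

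Among the striatal markers, 0 of 12 tested were called, 8 lay above 0 and 4 below, and the median log2 fold change was 0.05, beside -0.00069 over all tested genes. edgeR and DESeq2 called 0 as well, and 0 had an unadjusted limma p below 0.05. Drd2, the D2 dopamine receptor of the indirect pathway, had 17.2, 51.9 and 85.1 normalised reads at the lowest, median and highest in ctrl. In cKO it had 42.2, 47.9 and 84.0. The groups overlapped throughout (log2 fold change 0.13, SE 0.29, 95% interval -0.47 to 0.74, limma adjusted p = 0.866), while the ctrl libraries alone spanned a 4.95-fold range. Drd1a, the D1 receptor of the direct pathway, varied less, from 248 to 364 in ctrl and 258 to 378 in cKO (0.06, limma adjusted p = 0.834). Adora2a, the adenosine receptor of the D2 neurons, ran from 68.8 to 206 in ctrl and from 67.6 to 231 in cKO (0.23, limma adjusted p = 0.768).

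The signalling genes downstream of these receptors overlapped between the genotypes too. Ppp1r1b, which encodes the phosphatase inhibitor DARPP-32, had 1474 to 2354 normalised reads in ctrl and 1614 to 2385 in cKO. Pde10a, a phosphodiesterase of spiny neurons, had 844 to 1679 and 1072 to 2138. Rgs9, which shortens dopamine receptor signalling, had 253 to 397 and 240 to 355. Their log2 fold changes were 0.04, 0.06 and -0.04, with limma adjusted p of 0.921, 0.917 and 0.912. Gng7 and Adcy5 encode the G protein gamma subunit and the adenylyl cyclase of the same cascade. Gng7 had 1594 to 2797 in ctrl and 1198 to 2023 in cKO (-0.25, limma adjusted p = 0.563), and Adcy5 had 3308 to 4341 and 2587 to 3891 (-0.15, limma adjusted p = 0.605). Gpr6, an orphan receptor of D2 neurons (37.0 to 78.9 and 30.8 to 66.6), Rarb, a retinoic acid receptor (95.5 to 157 and 97.7 to 137), and Actn2, an actin cross-linking protein (133 to 221 and 155 to 195), overlapped as well. Ido1, a tryptophan-degrading enzyme, had 5.16 to 23.8 and 7.68 to 14.4. Isl1, a transcription factor of striatal and cholinergic neurons, was below the filter, at 0 to 12.6, and stood at or under 3 reads in 8 of 12 libraries.

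The striatal markers tended to be low or high in the same libraries. The striatum level of a library is the mean over the 12 tested markers of log2 values centred on each gene. It was lowest in ctrl library 3, at -0.49, and in cKO library 4, at -0.32. It was highest in ctrl library 5, at 0.37, in cKO library 1, at 0.34, and in ctrl library 6, at 0.31. Of the 12 markers, 12 exceeded their 12-library median in cKO library 1 and 11 in ctrl library 6, but 0 in ctrl library 3, 1 in cKO library 6 and 3 in cKO library 4. Ctrl library 3 was the lowest of all 12 libraries for 6 markers and cKO library 4 for 5. The low level of cKO library 4 was not limited to striatal genes, since it was also the lowest of the 12 libraries for the hippocampal markers (-0.23), for the lists of other hippocampal (-0.26), choroid plexus (-0.31) and thalamic (-0.20) genes, and for the cortex list (-0.14). It did not extend to every list. Among the 40, the choroid plexus markers stood at 0.08 in this library and the thalamic markers at -0.07, neither the lowest of the 12. The hippocampal level there was -0.14 after quantile normalisation, above that of ctrl library 2 at -0.17. After TMM scaling and after quantile normalisation the striatum level stayed at the low end in both libraries. It was -0.47 and -0.49 in ctrl library 3 and -0.33 and -0.26 in cKO library 4.

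**Figure D2:**
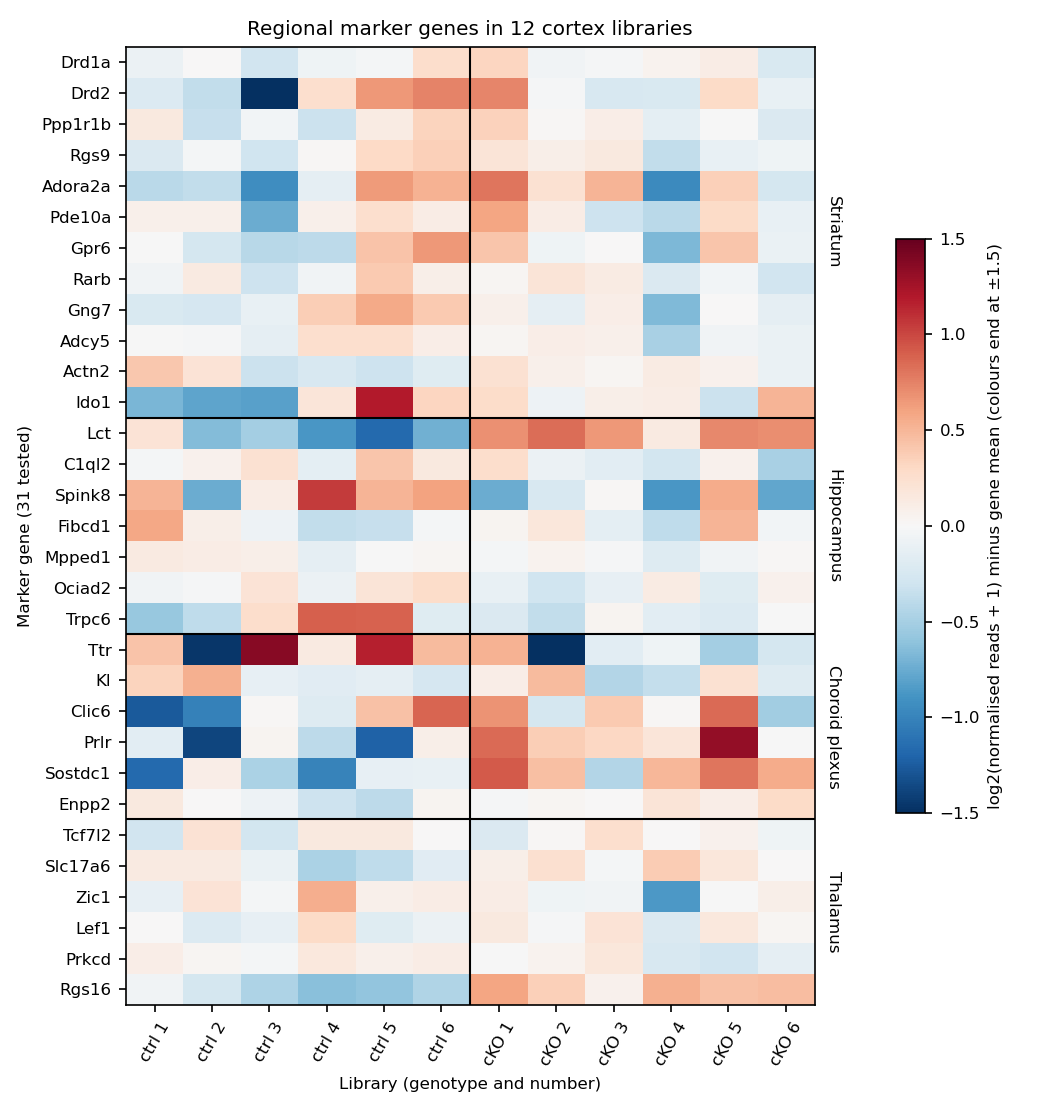
Each row is 1 of the 31 tested markers, grouped by region, and each column 1 library, ctrl on the left and cKO on the right of the vertical line. Colour gives log2(normalised reads + 1) minus the mean of the gene over the 12 libraries. Columns of like colour run through the striatal block (ctrl library 3 and cKO library 4 mostly blue, cKO library 1 red), whereas Rgs16 changes colour at the line between genotypes and Lct does so apart from ctrl library 1, which is on the side of the cKO libraries.

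Separated by Y-linked reads, the fitted differences of most striatal markers had opposite signs in the 2 sets. The markers tended to vary together by library, so they are no independent replicates of these comparisons of 3 against 3 libraries. With Y-linked reads the striatum level was -0.49 to -0.10 in ctrl and 0.04 to 0.34 in cKO. Without them it overlapped, at -0.005 to 0.37 in ctrl and -0.32 to 0.08 in cKO. With Y-linked reads, 12 of 12 were higher in cKO, with a median log2 fold change of 0.28, and without them 1 of 12, Actn2, was higher, with a median of -0.38. Thus 11 of 12 were higher in the first set and lower in the second by sign, as were 23.1% of all tested genes. With any library of the set left out, 11 or 12 of the markers were higher in the first set and 1 or 2 in the second. Not overlapping and higher in the first set were 4 of 12, Rgs9, Adora2a, Adcy5 and Ido1, beside 4.15% of tested genes. Not overlapping and lower in the second set were 3 of 12, Rgs9, Gng7 and Adcy5, beside 11.9%. Rgs9 and Adcy5 did both, 2 of 12, beside 0.174% of tested genes.

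Adora2a had the largest difference of effects between the sets among the 12 striatal markers, 1.71 on the log2 scale (SE 0.41), where that of Drd1a was 0.29 (SE 0.21) and that of Actn2 -0.26 (SE 0.24). With Y-linked reads it had 99.5, 102 and 68.8 normalised reads in ctrl libraries 1 to 3 and 231, 154 and 189 in the cKO libraries of the same numbers, a log2 fold change of 1.08. Without them it had 120, 206 and 190 in ctrl libraries 4 to 6 and 67.6, 169 and 110 in cKO, a change of -0.63. The first set did not overlap and the second did. The difference of the genotype effects between the sets had an unadjusted limma p below 0.05 for 7 of 12 striatal markers and 9 of all 31 tested markers, beside 8.77% of tested genes. None passed adjustment, as the smallest limma adjusted p for this difference was 0.562 among the markers, and over all genes 0 passed. Ctrl library 3, the lowest in striatum level, belongs to the first set, and ctrl libraries 5 and 6, among the highest, to the second. In cKO the order was the reverse, with library 1 (0.34) among the highest in the first set and library 4 (-0.32) among the lowest in the second. Ctrl libraries 4 and 5 had the largest shares of mitochondrial ribosomal RNA, and in the second set 1 of 12 striatal markers was higher in cKO without the former and 1 of 11 without the latter. Each of these fits kept the other of these ctrl libraries, so a part played by both together was not tested within the set.

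Within the libraries without Y-linked reads, Gng7 was called lower in cKO, along with Lct and Rgs16 called higher, 3 of 31 beside 0.493% of tested genes. Every ctrl library of this set had fewer reads in all than every cKO library. Gng7 had 2452, 2797 and 2483 normalised reads in ctrl libraries 4 to 6 and 1198, 1903 and 1727 in cKO (log2 fold change -0.70, limma adjusted p = 0.0479). Without cKO library 4 this became -0.50 (limma adjusted p = 0.102), without ctrl library 4 -0.74 (limma adjusted p = 0.14) and without ctrl library 5 -0.64 (limma adjusted p = 0.263), so the call rested on each of these. The Lct call in this set was also lost, at about the same fold change of 1.44, without ctrl library 4 (1.46, limma adjusted p = 0.0737), ctrl library 5 (1.32, limma adjusted p = 0.104) or cKO library 5 (1.34, limma adjusted p = 0.0737), and the Rgs16 call was kept in every case (limma adjusted p at most 0.036). Within the libraries with Y-linked reads, limma called 0 of 31, beside 0.25% of tested genes, and 8 of 31 had an unadjusted limma p below 0.05, beside 2.56%.

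**Figure D3:**
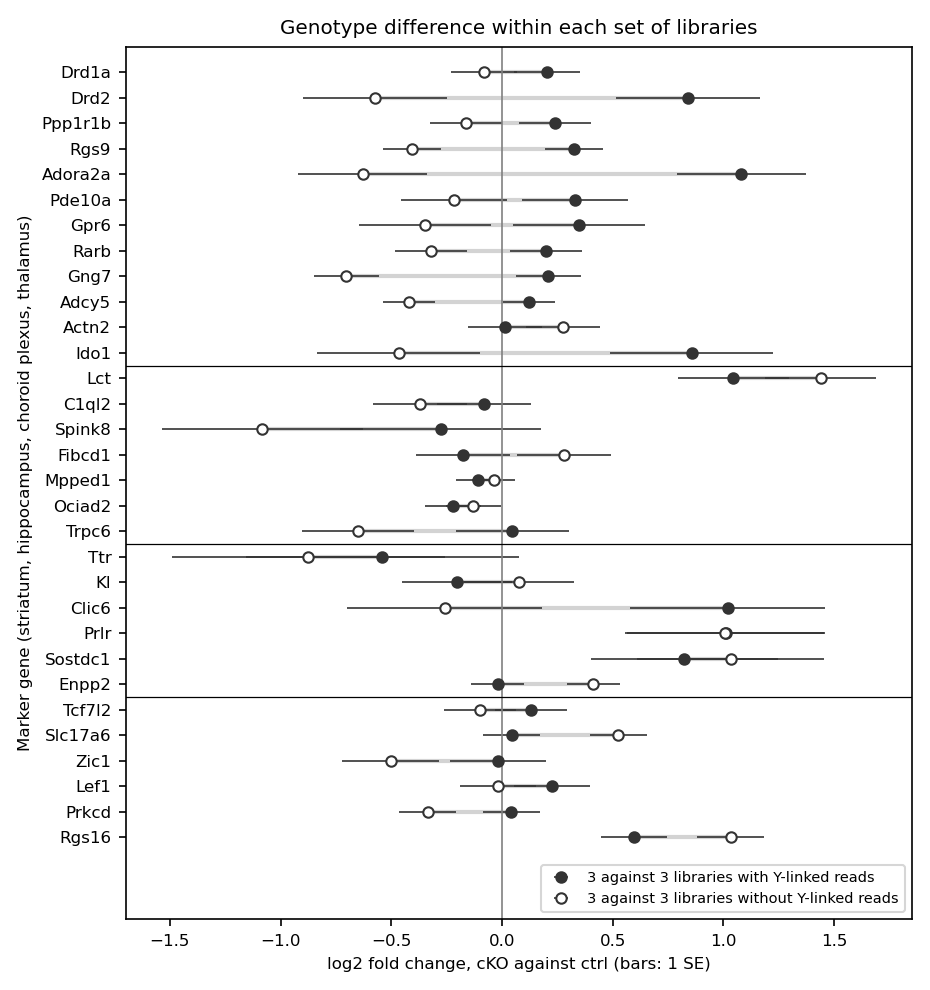
Log2 fold change of each tested marker, cKO against ctrl, within the libraries with Y-linked reads (filled circles) and without them (open circles), with bars of 1 SE and a pale line joining the pair where the bars leave it visible. In the striatal block at the top, 12 of 12 filled circles are above 0 and 11 of 12 open circles below, while both circles of Lct and of Rgs16 are above 0.

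A longer list of striatal gene symbols was set beside them, and those of it that were found in the table are not among the 40. Of 17 symbols, 14 were in the table and 12 tested, and limma, edgeR and DESeq2 called 0 (1 at an unadjusted limma p below 0.05). With Y-linked reads 9 of 12 were higher in cKO and without them 2 of 12, with medians of 0.24 and -0.32. By sign, 9 of 12 were higher in the first set and lower in the second, beside 23.1% of all tested genes. Not overlapping and higher in the first set were 3 of 12, beside 4.15% of tested genes. Not overlapping and lower in the second were 3 of 12, beside 11.9%, and 0 of 12 did both, beside 0.174%. The difference of effects between the sets had an unadjusted limma p below 0.05 for 4 of 12, beside 8.77% of tested genes. The 2 lists were not tested against each other. Penk, the enkephalin precursor of D2 neurons, had 671 to 1241 normalised reads in ctrl and 661 to 1384 in cKO (0.17, limma adjusted p = 0.692). These genes come from the same libraries and are no independent sample.

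Apart from Lct, the hippocampal markers gave no call. The list had 7 of 9 members tested, 2 above 0 and 5 below, and a median log2 fold change of -0.18. C1ql2, a secreted synapse organiser of dentate granule cells, had 47.0 to 69.9 normalised reads in ctrl and 37.0 to 62.8 in cKO (-0.23, limma adjusted p = 0.579). Spink8, a serine protease inhibitor of CA1, had 5.28 to 20.7 and 4.74 to 14.5 (-0.68, 95% interval -1.38 to 0.02, limma adjusted p = 0.517). Fibcd1, a membrane receptor found in CA1, had 162 to 313 and 160 to 298 (0.05, limma adjusted p = 0.91). The groups overlapped in each. Mpped1, a metallophosphoesterase that the cortex also expresses, was the steadiest of the 31, with 4042 to 4870 and 3873 to 4594, and its residual SD of 0.0722 on the log2 scale was undercut by 1.42% of tested genes. Ociad2 had 1240 to 1590 in ctrl and 1064 to 1429 in cKO, with 4 cKO libraries below every ctrl library (-0.18, limma adjusted p = 0.52).

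Trpc6, a calcium-permeable cation channel of dentate granule cells, had 1199 and 1190 normalised reads in ctrl libraries 4 and 5 and 434 to 772 in the other 10. Those are the 2 libraries with the largest shares of mitochondrial ribosomal RNA, and the fold change was -0.30 (limma adjusted p = 0.573). Tdo2, a tryptophan dioxygenase of granule cells, and Iyd, an iodotyrosine deiodinase, were below the filter, at 4.40 to 16.9 and 1.25 to 6.02. Of 14 other hippocampal genes, 13 were tested, and limma, edgeR and DESeq2 called 0 (3 at an unadjusted limma p below 0.05). Amigo2, a cell adhesion molecule of CA2, had the smallest adjusted p, with 88.3 to 136 in ctrl and 122 to 162 in cKO (0.42, limma adjusted p = 0.225).

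Several transcripts that define the choroid plexus were almost absent. Otx2, the transcription factor that specifies the tissue, Slc4a5, a bicarbonate transporter of its epithelium, and Tmem72, a membrane protein, stood at or under 3 reads in every library and at 0 in 8 libraries each. Ttr, which encodes transthyretin, had 6.16, 25.9 and 49.9 normalised reads at the lowest, median and highest in ctrl. In cKO it had 5.28, 16.1 and 27.3. The groups overlapped (log2 fold change -0.71, SE 0.43, 95% interval -1.61 to 0.20, limma adjusted p = 0.56), and its residual SD of 0.904 exceeded that of 99.8% of tested genes. Library 2 was the lowest of both genotypes for this gene. The ctrl libraries spanned 8.09-fold.

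Prlr and Sostdc1 had higher means in cKO without passing the threshold. Prlr, the prolactin receptor, had 6.16 to 18.8 normalised reads in ctrl and 17.5 to 45.2 in cKO, with 5 of 6 cKO libraries above every ctrl library. Its log2 fold change was 1.01 (SE 0.31, 95% interval 0.35 to 1.66), which did not pass adjustment (limma adjusted p = 0.288). Sostdc1, a secreted antagonist of BMP and Wnt signalling, had 4.94 to 13.2 and 8.79 to 24.2, again with 5 of 6 cKO libraries above every ctrl library (0.93, SE 0.29, limma adjusted p = 0.321). Over 12 libraries these genes had 264 and 178 reads in all. In the authors' deposited table, the DESeq2 log2 fold changes were 1.02 for Prlr and 0.97 for Sostdc1, with adjusted p values of 0.189 and 0.294.

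The other tested choroid plexus markers were Clic6, Kl and Enpp2. Clic6, of the intracellular chloride channel family, had 5.76 to 28.8 normalised reads in ctrl and 10.3 to 28.1 in cKO. Kl, which encodes klotho, had 46.3 to 80.1 and 40.5 to 77.2. Enpp2, which encodes autotaxin and is also strong in oligodendrocytes, had 3017 to 4394 and 3927 to 4839 (0.20, limma adjusted p = 0.524). All of these overlapped. Folr1, a folate receptor (1.65 to 8.79 over the 12 libraries), Aqp1, a water channel (5.16 to 14.0), and Calml4, a calmodulin-like protein (0 to 7.52), were below the filter. Over the 6 tested members the median was 0.29, with 4 above 0, and limma, edgeR and DESeq2 called 0 (2 at an unadjusted limma p below 0.05). Of 21 other choroid plexus genes, 20 were in the table and 13 tested, with 0 called by the same tools (again 2 at an unadjusted limma p below 0.05), and Kcne2, Krt8 and Tmem27 were at or under 3 reads in every library.

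**Figure D4:**
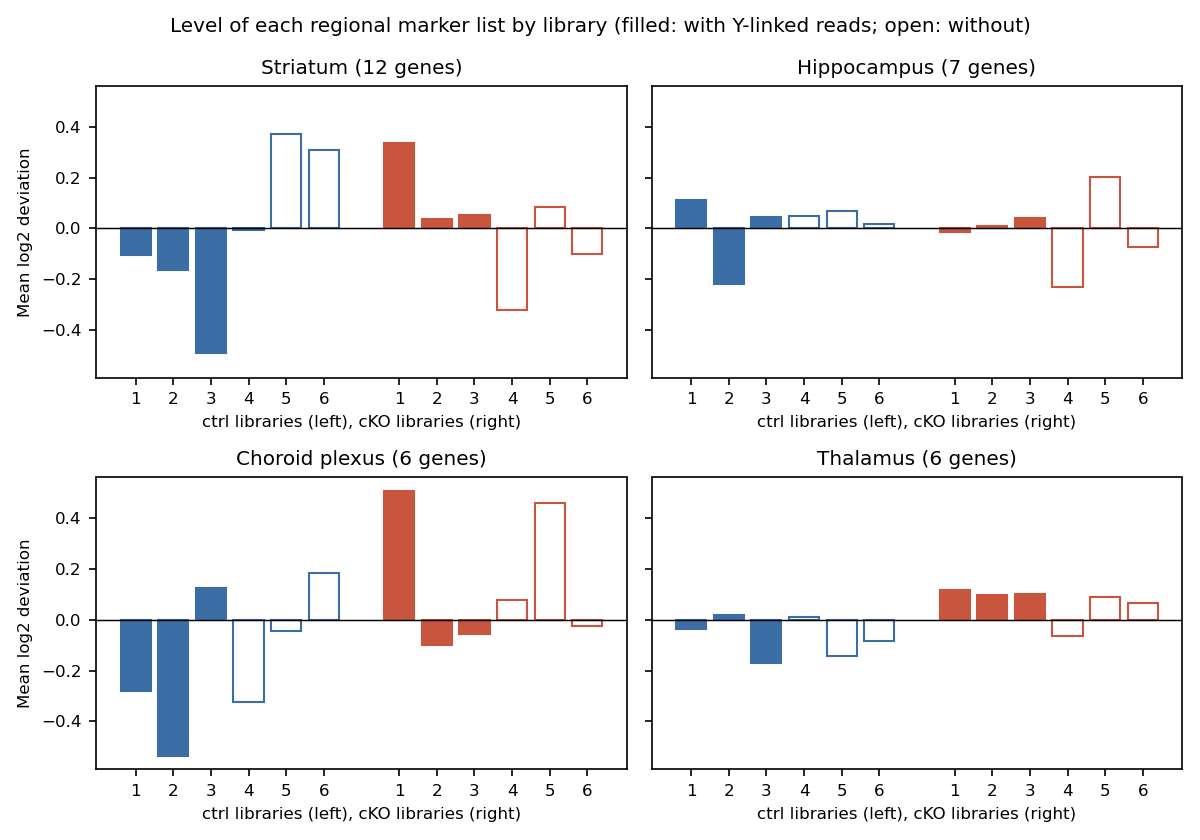
Mean log2 deviation from the gene mean (y axis) of the tested striatal, hippocampal, choroid plexus and thalamic markers in each library, ctrl 1 to 6 on the left and cKO 1 to 6 on the right of each panel, filled with Y-linked reads and open without. The striatal bars run from -0.49 in ctrl library 3 to 0.37 in ctrl library 5, within a single genotype, and the choroid plexus bars from -0.54 in ctrl library 2 to 0.51 in cKO library 1.

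In the thalamus list, 1 of 6 was called, 4 lay above 0 and the median log2 fold change was 0.06. Slc17a6, the vesicular glutamate transporter of thalamic neurons, had 417 to 634 normalised reads in ctrl and 566 to 754 in cKO (0.28, SE 0.11, 95% interval 0.05 to 0.51, limma adjusted p = 0.457). In the libraries without Y-linked reads, 417, 445 and 513 in ctrl stood against 754, 648 and 582 in cKO, a log2 fold change of 0.53 beside 0.04 in the others (limma adjusted p of the difference 0.562). Tcf7l2, a Wnt effector that thalamic neurons share with maturing oligodendrocytes, had 123 to 173 and 128 to 178 (0.02). Lef1, a Wnt effector also found in brain endothelium, had 71.3 to 101 and 71.2 to 95.9 (0.10). Neither separated the genotypes.

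Zic1, a zinc finger transcription factor, had 127 to 203 normalised reads in ctrl and 132 to 150 in 5 of the cKO libraries, with cKO library 4 at 75.9 (-0.26, limma adjusted p = 0.565). Prkcd, the protein kinase C delta of sensory thalamic relay neurons, had 118 to 135 in ctrl and 98.9 to 135 in cKO (-0.15, limma adjusted p = 0.586). Prkcd in ctrl spanned 1.15-fold, the narrowest ctrl range of the list. Of 12 other thalamic genes, 8 were tested, and limma, edgeR and DESeq2 called 0 (1 at an unadjusted limma p below 0.05). Gbx2 and Shox2, transcription factors of the developing thalamus, were at or under 3 reads in all 12 libraries.

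Per kilobase of exon, Mpped1 led the 39 markers with a known length, at 1034 normalised reads averaged over the 12 libraries, followed by Enpp2 at 693, Ppp1r1b at 647 and Gng7 at 512. The lengths count all annotated exons of a gene and not the transcript expressed, so this comparison between genes is rough. Rgs16 stood at 87.0, Drd2 at 21.3, Ttr at 18.8 and Lct at 7.36, and Slc17a7 at 5210. Residual SDs on the log2 scale had medians of 0.29 for striatal, 0.31 for hippocampal, 0.56 for choroid plexus and 0.20 for thalamic markers, beside 0.20 for all tested genes. These were not matched on the number of reads, on which the spread depends.

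The genes most like a marker over the 12 libraries were taken as the 10 with the highest Pearson r of log2 values among those averaging 50 normalised reads or more, a description in which all points share library and depth. For Drd2 these were led by P2ry1, a purinergic receptor (r = 0.942), and held the striatal members Pde10a (0.847) and Adora2a (0.784), 2 of 10 on a striatal list and 0 called. For Ttr they ran from 0.902 to 0.934, led by Bax, a regulator of apoptosis, and 0 of 10 were on a regional list. For Prkcd they ran from 0.816 to 0.885, led by Zfp395, with 0 on a list. For Lct they ran from 0.910 to 0.964, led by Serpina3n, a serine protease inhibitor, Wnt10a, a Wnt ligand, and Scnn1a, a sodium channel subunit of layer 4 neurons. Of those 10, 8 were called between the genotypes and 0 were on a regional list, so the genotype difference is part of their likeness to Lct.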

How the data were processed

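Per the labels' protocols, a directional kit was applied to 250 ng of rRNA-depleted total RNA. The submitters' processing notes list STAR, Bowtie, bedtools, Trim Galore and the build mm9, with no roles. The strand setting of the counting is not given in the sources used, so antisense or near-identical genes may share reads. Per the file headers, the authors deposited counts normalised with DESeq2, a signal in scaled reads, and their own comparison: a log2 fold change with its error, a score (the Wald statistic) and p-values, raw and adjusted. All values (100%) were whole multiples of a step per library within 0.01, which gave whole read counts and the depth of each library.

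Here, limma 3.58.1 (R 4.3.3, intensity trend) was fitted to log2(value + 1) over genes with a mean of at least 10, with genotype and a term for libraries in which 4 Y-linked genes summed above 100 normalised reads. Benjamini-Hochberg adjustment ran over all genes tested. A model of 4 groups gave the effects within each set and their difference. Alternatives were other pseudocounts, filters and scalings, array weights, edgeR 4.0.16 and DESeq2 1.42.0 on the recovered counts, a replicate block, left-out libraries, and the level of each regional list as a covariate. Level and likeness are descriptions. The main limma test of genotype was checked on simulated data in which genes varied independently and the sets did not differ. The other fits were not checked in this way. Exon lengths are from GENCODE M21 (GRCm38), for 39 of 40 markers; the missing one is Ido1. Tmem90a is an older symbol of Syndig1l, and Indo is an older symbol of the marker Ido1. The longer striatal list held Tmem90a, Syndig1l and Indo, of which only Tmem90a was in the table.

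The markers and lists were chosen with earlier results of these data known. The text names all 40 markers, genes of other lists where they were called or set a range, and the leading genes by likeness. Penk, Amigo2, Pomc, Kcne2, Krt8, Tmem27, Gbx2 and Shox2 were named after their values were seen.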

Additional observations from a re-analysis of the deposited data

Results flagged for a closer look

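In 5 of 62 groups of 6 libraries (31 markers in each genotype), a single library stood far from the others of its genotype, where chance alone marks about 1 group in 20. Pde10a was 844 normalised reads in ctrl library 3 and 1488 to 1679 in the other ctrl libraries. Gng7 was 1198 in cKO library 4 and 1727 to 2023 in the other cKO libraries, and Zic1 in the same library was 75.9, against 132 to 150. Lct was 48.5 in ctrl library 1, against 18.2 to 29.2 in the other ctrl libraries, and 46.3 in cKO library 4, against 66.8 to 75.9. Of the 5, 3 concern cKO library 4.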

How the results depend on the processing

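Over 33 alternatives, 10 of the 31 tested markers kept the sign of their fold change in every alternative that tested them (29 to 33 a marker), Lct and Rgs16 among them, and 21 changed it in at least 1. Against 120 called genes, 58 were called with a mean of at least 50 reads (53 higher, 5 lower, fewer genes tested), 36 within the libraries with Y-linked reads and 71 within those without (3 against 3 libraries), 76 with the choroid plexus level, 36 with the thalamus level and 47 with the hippocampus level without Lct as a covariate, where the cause was not tested. That thalamus level includes Rgs16, and without Rgs16 in it 120 genes were called. With the hippocampus level that includes Lct, 119 were called, and with the striatum level 114. Against 2 called markers, 1 was called at a mean of at least 50 reads, where Lct is not tested, 0 within the libraries with Y-linked reads, 1 with the thalamus level and 1 with the hippocampus level without Lct as a covariate. The median striatal fold change was -0.38, and the thalamic -0.0575, within the libraries without Y-linked reads. With single libraries left out, the genes whose effect differed between the sets numbered 0 to 7, the 7 without ctrl library 6. The left-out cKO library 4 combined with ctrl libraries 4 and 5, the covariates without Lct or Rgs16 and the left-out libraries within a set were added after seeing the data. With the replicate block, 118 genes were called (106 higher, 12 lower), Lct and Rgs16 among them (limma adjusted p = 0.00613 and 0.00276), and it changed no call on a marker. Same-numbered libraries deviated together with r of 0.09 to 0.50, and 3 of 6 ctrl libraries matched their own number best, so the numbers were not taken as pairs. Their r from the means of genotype and set ran from -0.10 to 0.48. The block was also added, after seeing the data, to the fit of the effects within each set, where it changed no call on Lct, Rgs16 or Gng7. The genes whose effect differed between the sets then numbered 1, Lrrc10b (limma adjusted p = 0.0213), which is on no list here and was named after its value was seen. Lrrc10b was among the 10 genes most like Drd2 over the 12 libraries (Pearson r = 0.763). No marker passed, the smallest being Adora2a (limma adjusted p = 0.0976), and an unadjusted limma p below 0.05 was found for 10 of 12 striatal markers and 2018 of 14397 genes. edgeR called 119 genes and DESeq2 169, both with Lct and Rgs16. Low read numbers left 9 markers untested, and of the tested markers Spink8 (124 reads over the 12 libraries) and Ido1 (126) had the fewest.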

Other observations

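Markers of further neighbours were listed beside those of the report. Of 6 hypothalamic genes, 5 were below the filter, and Pomc, the precursor of melanocortins, had 21.1 to 53.1 normalised reads in ctrl and 15.4 to 22.0 in cKO (log2 fold change -0.64, limma adjusted p = 0.381). Of 4 olfactory bulb genes 2 were tested, of 5 ependymal genes 3, and of 5 cholinergic and dopaminergic genes 3. Limma, edgeR and DESeq2 called 0 of all these, and 1, Pomc, had an unadjusted limma p below 0.05. Ependymal genes summed to 173 to 262 in ctrl and 154 to 259 in cKO. The olfactory bulb genes summed to 90.2 to 150 in ctrl and 76.1 to 160 in cKO.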
